A study of Mus musculus with 24 samples.

Results

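H3K4me2 was compared between Prdm16 KO and wild-type mouse embryonic stem (ES) cells, using 4 of the 24 CUT&RUN libraries of the study. Overlapping peaks of the 4 lists on chromosomes 1 to 19, X and Y were merged, which gave 38049 regions. A region marked in both KO lists and in neither wild-type list was called KO-only, and there were 4468 of them, 11.7% of all regions. A region marked in both wild-type lists and in neither KO list was called wild-type-only, and there were 695, or 1.83%. The other 4 ways of choosing 2 of the 4 lists pair 1 KO list with 1 wild-type list; these mixed choices were used as a description of how often 2 lists share a region that the others lack.

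The cells of both genotypes were on a C57BL/6 background and were kept with LIF, serum and serum replacement on Matrigel. The tested genotype is labelled Prdm16 KO; the allele, and whether each genotype was 1 clone or several, are not given in the labels. Each genotype had 2 H3K4me2 libraries, named here KO 1, KO 2, wild type 1 and wild type 2 after the numbers in the sample titles. Embryoid bodies (EB) of day 6, in which ES cells of the same genotypes differentiate as aggregates, and the H3K4me1 and PRDM16 libraries of both stages were used as further readouts, with 2 libraries per group. Nothing in the labels ties the libraries of a group to separate cultures, so the p-values below measure only the spread between libraries. KO 2 carries the prefix of another library series than KO 1 and both wild-type libraries.

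CUT&RUN releases the DNA next to an antibody-bound mark with a tethered nuclease, and a peak is a stretch where the released fragments pile up. Dimethylation of lysine 4 of histone H3, H3K4me2, lies around active and poised promoters and on enhancers, whereas H3K4me1 is most abundant on enhancers. PRDM16, the product of the targeted gene, binds DNA through zinc fingers and belongs to the PR domain proteins, which include several histone methyltransferases. It is best known for its roles in brown fat and in stem cells of blood and brain. In ES cells many developmental regulators, Hox genes among them, carry H3K4 methylation together with Polycomb marks on broad CpG-rich promoters.

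Promoters under KO-only and wild-type-only regions differed in base composition, and 5 of them are printed here to show that difference. Each sequence is a 300 bp RefSeq window of GRCm38.p6 (250 bases before to 50 after the transcription start, read 5′ to 3′ on the gene's strand), with CG dinucleotides in capitals. Dnah11 and Islr lay under KO-only regions. Mmp15, Mecom and Gsc lay under wild-type-only regions. The 5 were chosen after their values were seen.
Dnah11, chr12:118198994-118199293, minus strand: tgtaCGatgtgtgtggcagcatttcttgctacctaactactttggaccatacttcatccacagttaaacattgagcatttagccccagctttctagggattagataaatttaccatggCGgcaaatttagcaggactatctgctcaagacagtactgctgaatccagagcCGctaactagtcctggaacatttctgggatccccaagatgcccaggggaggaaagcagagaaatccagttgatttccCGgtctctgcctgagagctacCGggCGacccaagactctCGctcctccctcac
Islr, chr9:58158505-58158804, minus strand: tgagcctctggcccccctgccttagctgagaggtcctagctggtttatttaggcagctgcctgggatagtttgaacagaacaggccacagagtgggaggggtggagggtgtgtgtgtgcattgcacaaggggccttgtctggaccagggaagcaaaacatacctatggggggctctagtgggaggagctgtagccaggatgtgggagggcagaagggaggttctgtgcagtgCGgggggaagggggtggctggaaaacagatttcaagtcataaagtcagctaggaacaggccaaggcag
Mmp15, chr8:95352046-95352345, plus strand: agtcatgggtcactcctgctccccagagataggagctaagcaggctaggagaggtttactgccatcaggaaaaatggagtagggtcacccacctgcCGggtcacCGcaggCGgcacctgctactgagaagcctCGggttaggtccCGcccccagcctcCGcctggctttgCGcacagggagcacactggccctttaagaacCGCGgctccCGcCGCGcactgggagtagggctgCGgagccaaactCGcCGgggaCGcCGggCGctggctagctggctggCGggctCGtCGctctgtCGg
Mecom, chr3:30509710-30510009, minus strand: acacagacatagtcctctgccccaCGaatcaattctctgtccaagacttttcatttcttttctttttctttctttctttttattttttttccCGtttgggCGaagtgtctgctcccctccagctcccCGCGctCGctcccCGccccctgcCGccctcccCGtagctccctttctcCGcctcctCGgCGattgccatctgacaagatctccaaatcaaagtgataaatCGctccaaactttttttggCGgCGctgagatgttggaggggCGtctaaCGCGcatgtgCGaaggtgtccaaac
Gsc, chr12:104473187-104473486, minus strand: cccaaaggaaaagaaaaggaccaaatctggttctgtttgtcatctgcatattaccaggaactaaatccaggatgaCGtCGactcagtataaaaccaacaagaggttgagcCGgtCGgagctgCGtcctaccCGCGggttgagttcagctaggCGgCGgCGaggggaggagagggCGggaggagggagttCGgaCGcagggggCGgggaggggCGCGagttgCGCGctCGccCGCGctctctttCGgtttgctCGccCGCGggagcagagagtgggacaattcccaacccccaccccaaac
The windows of Dnah11, which encodes an axonemal dynein heavy chain, and of Islr, which encodes a leucine-rich repeat protein of stromal cells, held 7 and 1 CG dinucleotides. Those of Mmp15 (a membrane-type matrix metalloproteinase), Mecom (the EVI1 and PRDM3 transcription factor) and Gsc (the goosecoid homeobox factor) held 22, 19 and 25.

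KO lists were longer than wild-type lists. KO 1 and KO 2 held 29138 and 32874 peaks, against 24600 and 22615 peaks in wild type 1 and wild type 2. Peaks averaged 31006 ± 2642 in KO and 23607.5 ± 1404 in wild type (SD, n = 2 each), a log2 ratio of 0.39 with a two-sided exact permutation p of 0.333. That p is the smallest that 2 libraries against 2 can give. Covered sequence was 78.3 and 81.0 Mb in KO, against 65.5 and 59.2 Mb in wild type (log2 ratio 0.35, two-sided exact permutation p = 0.333), and with all lists cut to the same length that ratio was 0.06. Median peak width was 2233 and 1999 bp in KO, against 2253 and 2208 bp in wild type, so the groups did not overlap in number or in coverage but did in width. Reads per library were not analysed here, so depth is unknown, and its part in these counts was not tested.

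The cells' labels were set against marker genes, a gene being marked where a peak lay within 2500 bp of either end of its RefSeq span. The table of gene spans gives neither exons nor strand. Klf4 and Zfp42, transcription factor genes of naive pluripotency, were marked in all 4 lists. Tfcp2l1 was marked in 3 lists and Esrrb in KO 1 alone, while Pou5f1, Sox2 and Nanog were marked in none. A missing peak was therefore not read as a missing mark, and these markers bear out the ES label only in part. Of 12 fibroblast or feeder genes, 4 were marked in each of the 4 lists and 8 in none. Prdm16 itself (chromosome 4, 154316122 to 154637360) had 18 regions over its span widened by 10 kb, with 11 and 13 of them in KO 1 and KO 2, against 8 and 6 in wild type 1 and wild type 2. Among these, 2 were KO-only and 0 wild-type-only. They do not test the knockout.

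KO-only regions outnumbered every mixed choice. The mixed choices held 292 regions (KO 1 with wild type 1), 183 (KO 1 with wild type 2), 809 (KO 2 with wild type 1) and 459 (KO 2 with wild type 2). The 4468 KO-only regions thus lay far above that range, and the 695 wild-type-only regions lay within it. List length moved these numbers. With each list cut to its 22615 highest-scoring peaks, there were 1659 KO-only and 1450 wild-type-only regions, while the mixed choices held 368 to 447. At equal length both sets were thus about the same size and both above the mixed range. The lowest score kept was then 85.67 in KO 1 and 112.99 in KO 2, against 59.66 in wild type 1 and 50.01 in wild type 2. The cut thus reached higher scores in KO, and wild type 2 lost no peak. With scores of at least 100 in every list instead, there were 3969 KO-only and 316 wild-type-only regions. All 4 lists shared 17396 regions.

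**Figure D1:**
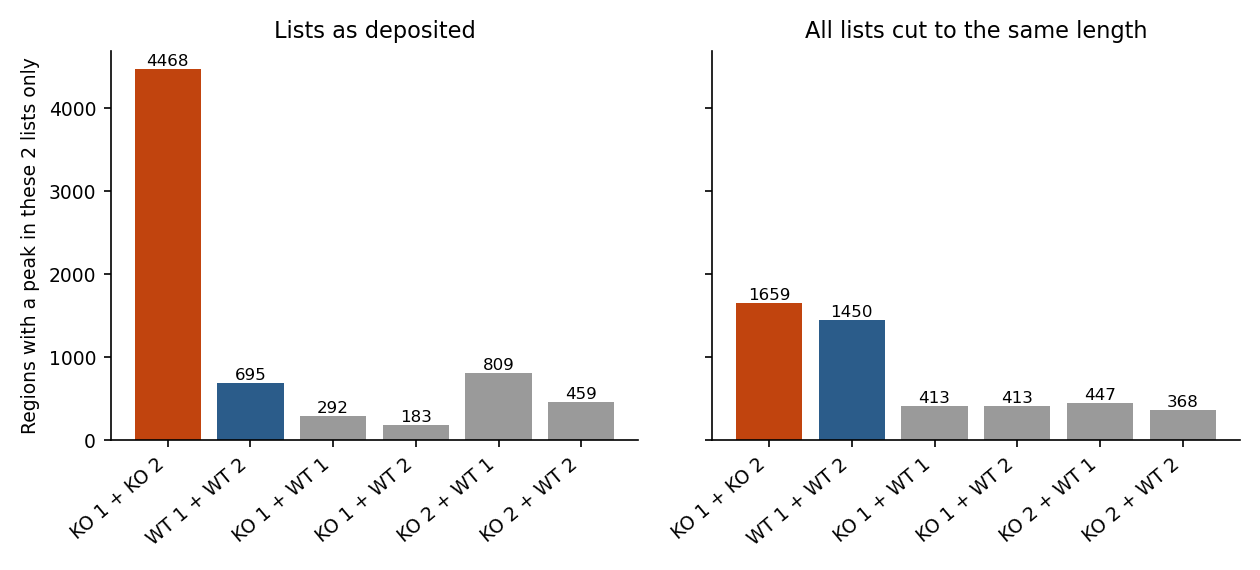
Number of H3K4me2 regions (y axis) with a peak in exactly 2 lists, for each choice of 2 of the 4 lists (x axis; orange KO 1 with KO 2, blue wild type (WT) 1 with 2, grey the mixed choices). With the lists as deposited (left), 4468 regions are KO-only and 695 wild-type-only. With all lists cut to the same length (right), they number 1659 and 1450, and the mixed choices 368 to 447.

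Both sets held many weak peaks. Scores are the authors' own and were used only within a list. The lower of the 2 scores was under 60, against a list minimum of 50, in 969 KO-only regions (21.7%) and 185 wild-type-only regions (26.6%). These are the regions closest to the threshold of the lists. By rank within its list, the weaker peak had a median percentile of 18.0 in KO-only and 17.6 in wild-type-only regions, above the 8.12 to 10.3 of the mixed choices and below the 49.9 of regions in all lists.

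KO-only regions were narrow and wild-type-only regions were broad. The median width was 1426 bp for KO-only and 4904 bp for wild-type-only regions, with 1445 to 2209 bp in the mixed choices and 3261 bp for regions in all lists. In lists of equal length the medians were 1564 bp for KO-only, 4059 bp for wild-type-only and 1695 to 2218 bp for mixed choices, so the order held. These widths were not particular to both sets. As deposited, regions missing only from KO 1 or only from KO 2 had medians of 5053 and 4364 bp. Regions in KO 1 or KO 2 alone had 960 and 857 bp, and those in wild type 1 or wild type 2 alone 2106 and 1365.5 bp.

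Narrow regions of KO were often missing from wild type, and broad regions of wild type were missing from KO more often than the reverse. Among regions up to 1 kb wide with a peak in both KO lists, 70.4% had none in wild type. That share was 34.0% at 1 to 2 kb, 11.1% at 2 to 3 kb and 2.61% to 5.09% in each wider class. Among regions found in both wild-type lists, the share with none in KO was 15.3% up to 1 kb, 1.28% at 2 to 3 kb, 4.16% at 4 to 5 kb, 6.65% at 5 to 6 kb, 7.82% at 6 to 7 kb and 7.49% beyond. Above 4 kb, 241 of 6932 regions of both KO lists were KO-only (3.48%), while 444 of 7257 regions of both wild-type lists were wild-type-only (6.12%). Up to 4 kb the counts were 4227 of 19045 (22.2%) and 251 of 12093 (2.08%). In lists of equal length the KO-only share was 1.61% above 4 kb and 11.3% up to 4 kb, and the wild-type-only share 10.7% above 4 kb and 6.03% up to it. The mixed choices had 16.1% to 31.3% up to 1 kb and 1.94% to 5.42% at 1 to 2 kb. Narrow regions were thus missing from the other lists more often there as well, though less often than for KO. The mixed choices also had higher shares beyond 7 kb, 1.25% to 6.89%, and between 5 and 6 kb they had 0.232% to 2.65%. The width of a merged region depends on the peaks it joins, so regions shared by more lists tend to be wider. No list held a peak wider than 8692 bp, and the widest peaks were 8667 and 8692 bp in KO, against 8484 and 8534 bp in wild type.

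**Figure D2:**
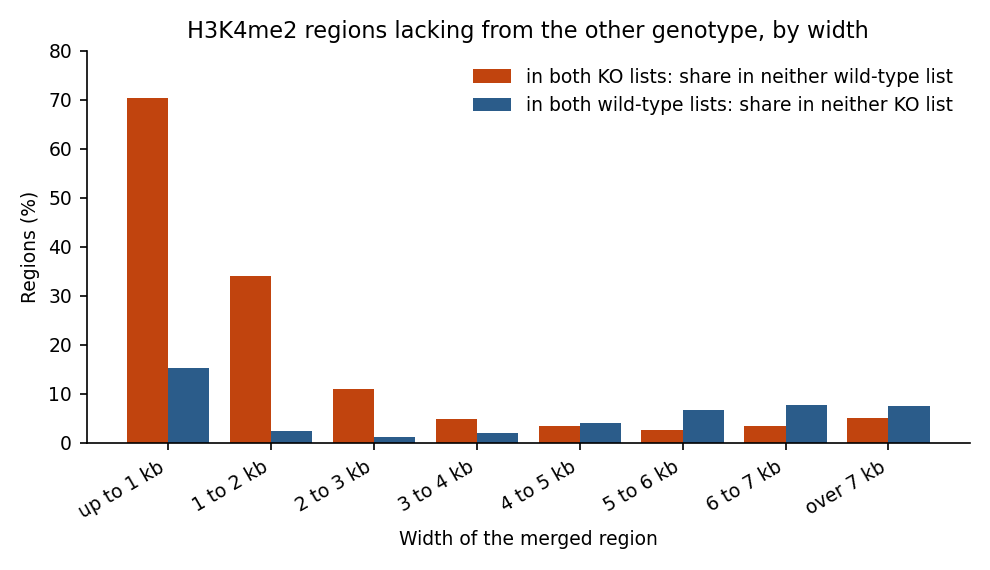
Share of regions (y axis, %) missing from both lists of the other genotype, by width of the merged region (x axis). Orange bars count regions with a peak in both KO lists and blue bars those with a peak in both wild-type lists; the orange share is 70.4% up to 1 kb and 2.61% to 5.09% above 4 kb, and the blue share is 1.28% at 2 to 3 kb and 7.49% above 7 kb.

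KO-only regions mostly lay away from gene ends, whereas many wild-type-only regions reached one. A gene end lay within 2500 bp of 605 KO-only regions (13.5%) and 319 wild-type-only regions (45.9%); the mixed choices had 18.6% to 29.0%. It lay within that distance of 54.9% of regions in all lists and 36.4% of all regions. A RefSeq transcription start lay within that distance of 6.74% of KO-only and 32.5% of wild-type-only regions, with 10.9% to 18.5% in the mixed choices. Outside every gene span lay 1956 KO-only regions (43.8%) and 139 wild-type-only regions (20%). Inside a span, more than 2500 bp from its ends, lay 42.7% of KO-only and 34.1% of wild-type-only regions. The median distance to a gene end was 21778.5 bp for KO-only and 4239 bp for wild-type-only regions, and the mixed choices had medians of 8795 to 18599 bp. More than 100 kb from any gene end lay 713 KO-only regions (16.0%) and 31 wild-type-only regions (4.46%). Related patterns had similar places. Of regions missing only from KO 1 or only from KO 2, 44.3% and 41.4% lay at a gene end. For regions in KO 1 or KO 2 alone the shares were 11.2% and 13.9%, with 15.6% and 15.4% beyond 100 kb. Regions in wild type 1 or wild type 2 alone had 32.1% and 27.5% at a gene end. In lists of equal length, 14.5% of KO-only and 40.5% of wild-type-only regions lay at a gene end, and 22.0% to 33.1% of those in the mixed choices. Width and place moved together here, and their separate parts were not tested.

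**Figure D3:**
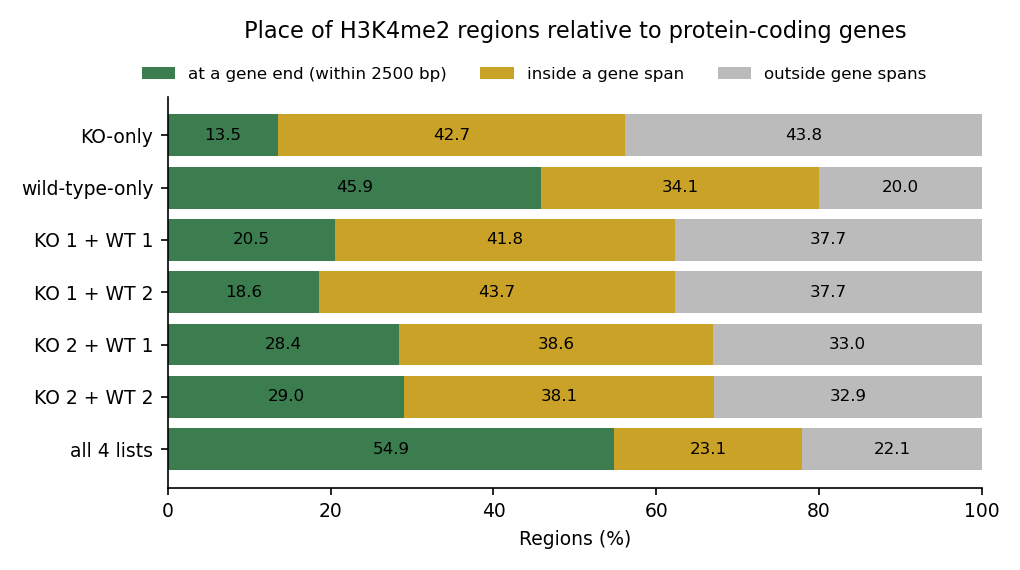
Place of H3K4me2 regions relative to protein-coding genes (x axis, % of regions), for KO-only, wild-type-only, mixed and shared regions. KO-only regions have the smallest green share (13.5% at a gene end) and wild-type-only regions, at 45.9%, lie between the mixed choices and regions in all 4 lists (54.9%).

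CpG content also differed between the promoters of both sets. A promoter window was called CpG-rich at a GC content of at least 50% and an observed over expected CpG ratio of at least 0.6. Windows were found for 17492 of 21887 genes (79.9%), 21263 windows in all, and those of other genes were not used here. Under KO-only regions 104 of 274 windows were CpG-rich (38.0%), and under wild-type-only regions 170 of 262 (64.9%). The share was 62.8% to 71.0% in the mixed choices, 69.6% for regions in all lists, 18.0% for windows under no region and 45.1% for every window. The median number of CG dinucleotides per window was 11 under KO-only regions and 20.5 under wild-type-only regions, with 18 to 23 in the mixed choices. Promoters under KO-only regions thus stood below the mixed choices, while those under wild-type-only regions lay within their range. The share is a description of these 300 bp windows, and no region outside them was read.

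The strongest KO-only regions at gene ends were mostly narrow. By rank of the weaker peak, the first lay over the start of Dnah11 (chromosome 12, 118197933 to 118199431), with scores of 409.06 in KO 1 and 436.99 in KO 2. It carried no H3K4me1 peak in ES cells, but H3K4me2 peaks in both KO and both wild-type EB libraries. Ormdl2, which encodes a regulator of sphingolipid synthesis, lay under a KO-only region of 5004 bp that reached 3 gene ends. Prrg3, a gene of a transmembrane Gla protein, and Trmt2b, a gene of a transfer RNA methyltransferase, had KO-only regions over their starts on chromosome X. Islr had one of 2231 bp (chromosome 9, 58156497 to 58158727), with scores of 243.26 in KO 1 and 270.47 in KO 2. Copg1, which encodes a coatomer subunit, shared one of 5520 bp with Hmces, and the nearest tabulated start, which it overlapped, was that of Hmces. This shared region also met H3K4me1 peaks of 2 KO and 0 wild-type ES libraries, whereas the Islr region met 0 KO and 1 wild-type. Among the first 12 regions, more KO than wild-type H3K4me1 libraries had a peak at 2 and fewer at 1. Other gene ends among the first 12 were those of Dcaf12l2, Kcnv2 (a potassium channel subunit), Thsd4 (an extracellular matrix protein), Gpr132 (a G protein-coupled receptor) and 3425401B19Rik. Their widths were 1498 to 3862 bp.

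The strongest KO-only regions away from gene ends were also narrow, between 1241 and 2488 bp for the first 8. The first lay inside Rin3, a gene of a Rab5 exchange factor (chromosome 12, 102367985 to 102370472), with scores of 360.68 in KO 1 and 433.44 in KO 2. Others lay inside Dglucy, which encodes D-glutamate cyclase, and Clvs1, which encodes a lipid-binding protein of endosomes. Outside gene spans, the nearest genes were Slc7a12 (an amino acid transporter), Ppp4r3a (a subunit of protein phosphatase 4), Abca1 (the cholesterol exporter), Gm46911 and Vmn1r40 (a vomeronasal receptor). The region near Gm46911 lay 505996 bp from the closest gene end. Of these 8, only the region near Slc7a12 had H3K4me1 peaks in 2 KO and 0 wild-type ES libraries. The region near Abca1 had them in 0 KO and 1 wild-type ES library, and these 2 were the only ones with any.

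The strongest wild-type-only regions at gene ends were broader, 3072 to 6798 bp for the first 12. The first lay over the start of Cpne9, which encodes a copine (chromosome 6, 113281721 to 113286578), with scores of 312.68 in wild type 1 and 372.88 in wild type 2. It had H3K4me1 peaks in all 4 ES libraries and H3K4me2 peaks in all 4 EB libraries. Mmp15 followed (chromosome 8, 95350607 to 95354497), with scores of 367.88 in wild type 1 and 281.85 in wild type 2, and H3K4me2 peaks in 0 KO and 2 wild-type EB libraries. Other starts were those of Bcar3 (an adaptor protein), Dpf3 (a subunit of BAF chromatin remodelling complexes), Mecom, Afap1 (an actin-binding protein) and Uchl3 (a ubiquitin hydrolase). Ends of Arntl2 (a circadian clock factor), Dennd5b (a Rab exchange factor), Mtus1 (a microtubule-associated protein), Dok4 (a docking protein) and Fat1 (a protocadherin) completed the 12. The regions at these ends met no tabulated start. For Dennd5b, Mtus1 and Dok4 the nearest tabulated start was that of another gene, so these ends may still be starts. Away from gene ends, the strongest lay inside Frmd4b and Nhsl1, and 1 of 3819 bp lay inside Cdyl, a chromodomain corepressor gene, over one of its annotated starts. Others lay nearest Abt1, Rhobtb1, Klrb1c and Sox1, the last a neural transcription factor gene 6042 bp from a region of 5829 bp.

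Some genes held many changed regions. Within spans widened by 10 kb, Tenm3, a gene of the teneurin adhesion family on chromosome 8, had 10 KO-only among 35 regions. Sh3rf1, a scaffold of JNK signalling, had 7 of 13, and Fto, an RNA demethylase gene, 7 of 17. Frmd4b had 6 of 17 and Tiam1, a Rac exchange factor gene, 6 of 19. Among genes with wild-type-only regions, Nhsl1 had 5 of 17, while Rap1b (a small GTPase) had 3 of 4, Igdcc4 3 of 5, Vgll4 (a TEAD cofactor) 3 of 8 and Mtus1 3 of 11. Genes with at least 3 numbered 97 of the 2795 with any KO-only region and 7 of the 782 with any wild-type-only region. The KO-only set was also the larger one, with 4468 regions against 695, so these counts were not read as clustering. These genes differ in length, and Tenm3 spans 1297 kb, against 31.4 kb for Rap1b.

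A minority of wild-type-only regions had a nearest neighbour of their own kind, but more than their share of all regions. Runs with gaps of at most 25 kb held 724 KO-only regions (16.2%) and 129 wild-type-only regions (18.6%). The densest KO-only runs, of 4 regions each, lay in Eml1 on chromosome 12 (108502944 to 108549171), in Sh3rf1 on chromosome 8 (61390270 to 61437970) and on chromosome 12 at 104545305 to 104594306, where no protein-coding gene overlapped. The densest wild-type-only runs lay in Nhsl1 on chromosome 10 (4 regions, 18354941 to 18394478), across Tmem221, Nxnl1, Slc27a1, Pgls, Niban3 and Colgalt1 on chromosome 8 (4 regions, 71556506 to 71613894) and at Pou4f2, a POU factor gene of retinal neurons (3 regions, 78418883 to 78438700 on chromosome 8). None of these 6 runs enclosed a region present in all lists. The nearest region of any kind was itself KO-only for 13.6% of KO-only regions, and wild-type-only for 14.7% of wild-type-only regions, whereas KO-only regions are 11.7% and wild-type-only regions 1.83% of all regions. The KO-only share was thus close to the background and the wild-type-only share above it. The median gap to the nearest region was 11598 bp for KO-only, 6372 bp for wild-type-only and 12383 bp for shared regions. A peak of the lists lacking the region lay within 5 kb of 12.1% of KO-only and 23.5% of wild-type-only regions, and the mixed choices had 21.3% to 30.9%.

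Fewer Hox genes were marked in each KO library than in each wild-type library. The 39 Hox genes, which encode the homeodomain factors of body axis patterning, were marked at a gene end in 12 and 16 cases in KO 1 and KO 2, against 22 and 22 in wild type 1 and wild type 2. Over all 21887 genes the numbers were 11968 and 12726 in KO, against 12287 and 11860 in wild type, so the genotypes overlapped there and not in the Hox list. KO-only marking was found at 419 genes (1.91%) and wild-type-only marking at 266 genes (1.22%), with 40 to 214 in the mixed choices. At equal list lengths these counts were 205 KO-only and 556 wild-type-only genes, so their order turned. The Hox list had 0 KO-only and 6 wild-type-only genes (Hoxa13, Hoxb4, Hoxb13, Hoxd4, Hoxd11 and Hoxd12). In equally long lists it had 0 and 7. Hoxd11 and Hoxd12 share 1 region of 6384 bp (chromosome 2, 74678543 to 74684926), with scores of 61.48 in wild type 1 and 113.90 in wild type 2. Hoxb4 lay under a region of 4175 bp (chromosome 11, 96317108 to 96321282) with scores of 165.59 in wild type 1 and 103.13 in wild type 2. That region had H3K4me1 peaks in 0 KO and 2 wild-type ES libraries.

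In the primitive streak and neuroectoderm lists, wild-type-only genes outnumbered KO-only genes as well. Of 17 primitive streak and mesoderm genes, 0 were KO-only and 3 wild-type-only: Eomes (a T-box factor), Gsc and Snai1 (a zinc finger repressor of epithelial genes). This list was marked at 7 and 6 genes in KO, against 10 and 9 in wild type. Eomes had 2 wild-type-only regions of 7638 and 6228 bp, and the second, on chromosome 9 at 118483902 to 118490129, scored 296.08 in wild type 1 and 154.50 in wild type 2. Gsc lay under a region of 5651 bp (chromosome 12, 104471046 to 104476696), with H3K4me1 peaks in 0 KO and 2 wild-type ES libraries. Of 18 neuroectoderm genes, Pax7 and Nkx2-2, which encode homeodomain factors of the neural tube, were wild-type-only, and 6 and 7 were marked in KO, against 10 and 9 in wild type. Of 12 endoderm genes, Afp was KO-only and Foxa2 wild-type-only, and 6 and 7 were marked in KO, against 7 and 7 in wild type. Gata3 (of 10 trophoblast genes) and Mecom (of 15 PRDM family genes) were the single wild-type-only members of lists with 0 KO-only genes. The lists of primed epiblast, cardiac, and blood and endothelial genes had 0 of either kind. Over all 21887 genes, 266 were wild-type-only (1.22%) and 419 KO-only (1.91%), and the library counts of the genotypes overlapped. At equal list lengths these genes numbered 556 and 205. Counts of 0 or 1 in lists this short were not read as results about the lists. Across the 14 wild-type-only regions at wild-type-only genes of all lists, Hox included, width had a median of 5500.5 bp. H3K4me1 peaks were found there in more KO than wild-type ES libraries at 3 regions, in fewer at 6 and in as many at 5.

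KO-only list genes were 4 of 255, near the share over all genes, where 419 of 21887 were KO-only (1.91%). The count was therefore not read as a result about the lists. Tdh, the threonine dehydrogenase gene used by mouse ES cells, had a region of 2485 bp (chromosome 14, 63492500 to 63494984) with scores of 158.64 in KO 1 and 269.66 in KO 2. Dppa2, a gene of pluripotent cells, had one of 8301 bp with scores of 84.14 in KO 1 and 84.19 in KO 2. These were 2 of 23 genes of core and naive pluripotency, a list marked at 11 and 9 genes in KO, against 6 and 6 in wild type. Afp, an albumin-family gene of endoderm, and Ddx4, a helicase gene of germ cells, had KO-only regions of 971 and 915 bp. At equal list lengths Tdh, Afp, Ddx4 and Kdm5b, a gene of an H3K4 demethylase, were KO-only and Dppa2 was not. Hoxd3, Klf4, Kmt2a (an H3K4 methyltransferase gene) and Umod were then among 18 wild-type-only list genes, so the pluripotency list and the list of H3K4 methylation enzymes each had 1 KO-only and 1 wild-type-only gene. With the lists as deposited, 9 of the 17 gene lists had neither KO-only nor wild-type-only genes, among them H3K4 methylation enzymes and Polycomb genes. In the list of 10 brown fat genes, 7 were marked in each of the 4 libraries.

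H3K4me1 in the same cells, from libraries that did not choose the regions, differed in the same direction as H3K4me2. At KO-only regions, 27.1% and 24.9% had an H3K4me1 peak in KO libraries 1 and 2, against 20.1% and 17.4% in wild type. The difference was 7.23 percentage points (two-sided exact permutation p = 0.333, the smallest possible). At wild-type-only regions, 24.5% and 17.8% had one in KO, against 38.4% and 27.9% in wild type, a difference of -12.01 percentage points (two-sided exact permutation p = 0.333). It was -6.76 without the H3K4me1 library wild type 1, -6.93 without the H3K4me2 library wild type 1 and -7.11 without the H3K4me2 library wild type 2, and -6.76 to -17.3 over all single libraries left out. Neither pair of groups overlapped. Regions in all lists had 34.5% and 33.4% in KO, against 38.0% and 33.9% in wild type, and there the groups were closer. H3K4me1 peaks of both KO libraries and of no wild-type library met 165 of 4468 KO-only regions. The reverse held for 36, and the mixed choices had 44 to 74. Of 695 wild-type-only regions, these counts were 6 and 48, with 3 to 21 in the mixed choices. Of 17396 regions in all lists, they were 305 and 446, with 209 to 387 in the mixed choices. No H3K4me1 peak of any ES library met 2700 KO-only, 335 wild-type-only and 7654 shared regions. The H3K4me1 lists held 14945 and 13901 peaks in KO, against 15435 and 12746 in wild type, so their lengths overlapped.

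In EB the KO-only regions were mostly without H3K4me2. Of them, 5.46% and 4.90% had an H3K4me2 peak in KO EB, against 7.05% and 14.3% in wild-type EB, a difference of -5.48 percentage points (two-sided exact permutation p = 0.333). Without the second wild-type EB library the difference was -1.87, and without the first it was -9.10. At wild-type-only regions the shares were 39.1% and 30.2% in KO EB, against 30.4% and 39.7% in wild-type EB, and the groups overlapped (difference -0.36 percentage points, two-sided exact permutation p = 0.667). Regions in all ES lists had 58.7% and 56.3% in KO EB, against 58.7% and 66.6% in wild-type EB. The second wild-type EB library belongs to the same library series as KO 2 and had the longest list, 19246 peaks, against 13818 to 15205 in the other EB libraries of H3K4me2. PRDM16 peaks were rare here, at no more than 0.134% of KO-only and 1.58% of wild-type-only regions in any PRDM16 library. Both of these highest shares came from KO ES libraries. Wild-type PRDM16 libraries of either stage reached 0.022% of KO-only and 1.01% of wild-type-only regions. At regions in all lists the highest share was 0.759%, in a wild-type EB library. These shares were not read as PRDM16 binding.

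**Figure D4:**
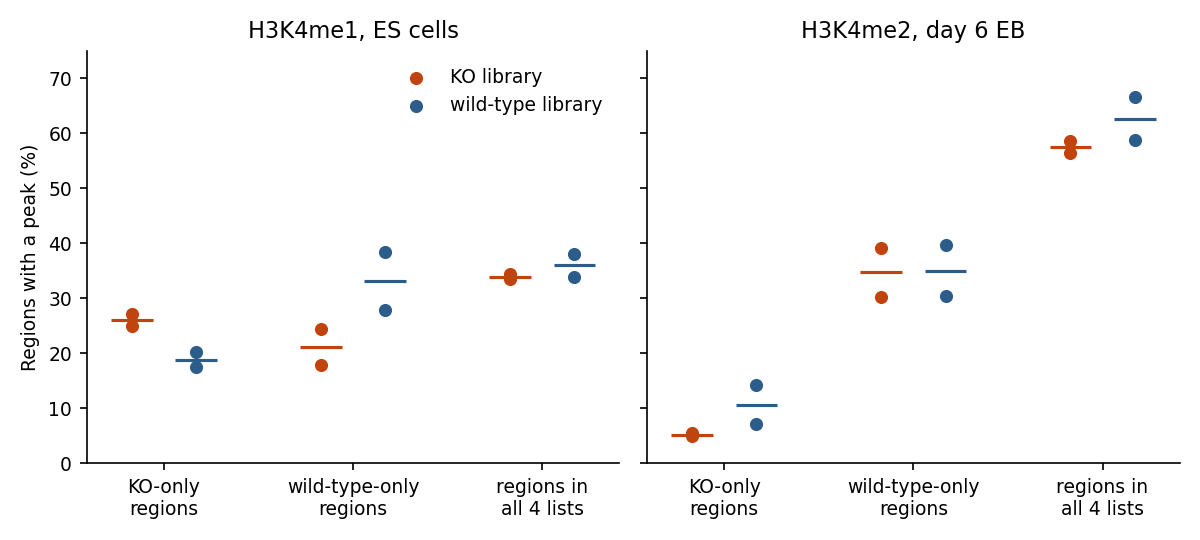
Share of regions (y axis, %) with an H3K4me1 peak in ES cells (left) or an H3K4me2 peak in day 6 EB (right), at KO-only, wild-type-only and shared regions (x axis). Each point is 1 library and each line the mean of 2; H3K4me1 is at 24.9% to 27.1% in KO and 17.4% to 20.1% in wild type at KO-only regions, and the order is turned at wild-type-only regions.

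Changed regions were unevenly spread over the genome. KO-only regions were 16.7% of regions on chromosome 12, and wild-type-only regions 3.58% on chromosome 8. Among 428 windows of 5 Mb with at least 30 regions, the KO-only share had a median of 11.6%, quartiles of 8.50% and 14.3%, and a maximum of 35.7%. The 4 highest windows all lay on chromosome 12 from 95 Mb on, and the window with the highest wild-type-only share (12.03%) lay there as well. This distal part was singled out after its values were seen. It held 441 regions between 95617391 and 119997397, of which 125 were KO-only (28.3%) and 27 wild-type-only (6.12%), with 0.227% to 0.680% in the mixed choices. The rest of chromosome 12 had 12.3% and 1.46%, and the other chromosomes with it 11.5% and 1.78%. Without it 4343 KO-only and 668 wild-type-only regions remained, and the H3K4me1 differences were 6.77 percentage points at KO-only and -12.4 at wild-type-only regions. The regions of Dnah11, Gpr132, Rin3, Dglucy and Ppp4r3a, the Gsc region and 2 of the 3 densest KO-only runs (in Eml1, and the run with no gene) lie in it. At equal list lengths KO-only regions were 23.1% and wild-type-only regions 9.31% of the regions there.

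Libraries that did not define the regions also had more of their peaks in that part in KO. For H3K4me1 in ES cells, 1.18% and 1.02% of peaks lay there in KO, against 0.544% and 0.526% in wild type, a 2.05-fold difference. For H3K4me1 in EB the shares were 1.11% and 1.05% in KO, against 0.504% and 0.475% in wild type (2.20-fold), and for H3K4me2 in EB 0.973% and 0.970% in KO, against 0.872% and 0.956% in wild type (1.06-fold). Over these 12 libraries the log2 ratio averaged 0.76, with an exact permutation p of 0.00926 from 216 assignments within mark and stage (two-sided), the smallest possible. The 3 sets come from cells of the same genotypes, and the number of clones is not given. They are therefore not independent tests of genotype, and this p measures only the spread between libraries. KO exceeded wild type in every pairing within each of the 3 sets. On the rest of chromosome 12 the log2 ratio was -0.05 (two-sided exact permutation p = 0.0833). H3K4me2 in ES cells, which chose the part, had 1.12% and 1.11% in KO, against 0.833% and 0.867% in wild type. The amount of DNA that each library had from this part was not analysed here, and whether it differed between the genotypes was not tested.

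**Figure D5:**
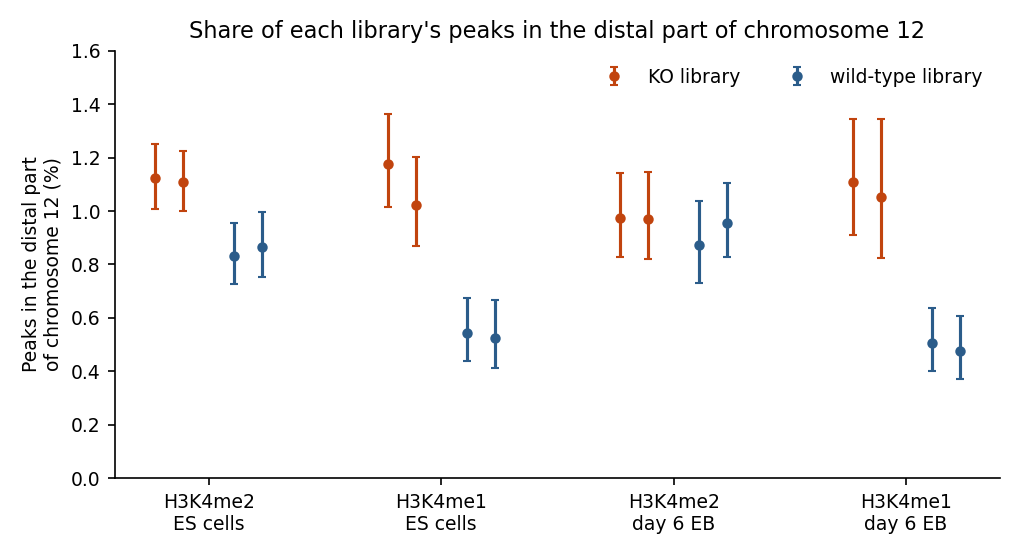
Share of each library's peaks (y axis, %) in the distal part of chromosome 12, by mark and stage (x axis), with 95% Wilson intervals that cover counting error only. KO libraries (orange, left) sit above wild-type libraries (blue, right) in all 4 sets, with 1.02% to 1.18% against 0.526% to 0.544% for H3K4me1 in ES cells and a small difference for H3K4me2 in EB.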

How the data were processed

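For each CUT&RUN library the authors deposited 1 peak list, which gives a position, a name in the style of MACS and a score per peak. That score is the authors' own; its unit is unknown here, and the lowest was 50. The submitters' processing notes name the build mm10 and, with no role or order, Bowtie2, SAMtools (version 1.5), bedtools, MACS2, deepTools and HOMER (version 4.10). For control libraries and read totals nothing is given in the sources used here. Peaks off chromosomes 1 to 19, X and Y were set aside, overlapping peaks merged, and a list counted as present with at least 1 bp of overlap. Genes and promoter windows came from RefSeq tables of GRCm38.p6, which shares mm10 coordinates. No promoter window of chromosome 18 was used here. Libraries were grouped by the sample titles and compared with two-sided exact permutation tests. Wilson intervals are at 95%. Scripts used Python 3.11.15, NumPy 2.4.6, pandas 2.3.3 and SciPy 1.17.1 and were tested on simulated lists with planted regions. Named regions are, per direction, the 12 at gene ends and the 8 farther away with the highest rank of the weaker peak, the 5 genes with most changed regions, the 3 densest runs, and changed members of 17 gene lists with 255 genes. Of the regions so chosen, 2 are not reported here. The regions compared, the lists and the rules were chosen with earlier results of these data known. No paired analysis entered the main tests, since same-numbered libraries share only a number. The alternatives tried were stricter scores, equal list lengths, single libraries left out, other overlap, merging and gene windows, every contig and the replicate block.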

Additional observations from a re-analysis of the deposited data

Results flagged for a closer look

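H3K4me1 at KO-only regions went opposite ways in ES cells and EB. In ES cells the share of these regions with an H3K4me1 peak was 7.23 percentage points higher in KO than in wild type. In EB it was 7.45% and 5.21% in KO, against 10.99% and 10.5% in wild type, a difference of -4.39 percentage points. Both ES libraries of KO lay above both of wild type, and both EB libraries of KO lay below. The effect in ES cells minus that in EB was 11.6 percentage points (two-sided exact permutation p = 0.0556 over 36 assignments, the smallest possible, so the difference cannot pass 0.05). At regions in all lists the same difference was 7.02 percentage points (two-sided exact permutation p = 0.278). The lower H3K4me1 share of KO in EB was not particular to KO-only regions. In EB, KO minus wild type was -9.06 percentage points at regions in all lists and -5.18 at wild-type-only regions. Both were further below wild type than the -4.39 of KO-only regions. The EB lists of H3K4me1 held 8943 and 5990 peaks in KO, against 14082 and 13260 in wild type, and the part of list length was not tested.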

How the results depend on the processing

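With each library left out in turn, KO-only regions numbered 5999 to 8774 and wild-type-only regions 962 to 1949, since fewer lists must hold or lack a region. KO-only regions numbered 8774 without KO 1, 6752 without KO 2 and 7068 without wild type 1. Wild-type-only regions numbered 1706 without KO 2, 1487 without wild type 1 and 1949 without wild type 2. The gene-end share was then 12.7% to 16.7% for KO-only and 35.8% to 44.8% for wild-type-only regions. In the higher-scoring 50% of each list there were 2249 KO-only and 287 wild-type-only regions, 27.1% and 58.5% of them at gene ends. At scores of at least 100 there were 3969 KO-only and 316 wild-type-only regions. The gene-end shares were then 20.1% for KO-only and 58.9% for wild-type-only regions. At equal list lengths there were 1659 KO-only and 1450 wild-type-only regions, and the wild-type-only gene-end share was 40.5%. Where peaks had to cover 50% of a region, the KO-only gene-end share was 16.4%. With a gene window of 1000 bp the shares were 10.2% for KO-only and 42.0% for wild-type-only regions, with 10000 bp 31.2% and 63.2%, and at transcription starts alone 6.74% and 32.5%. The KO-only share was the lower one under each of these settings. Wild-type-only regions of at most 4 kb numbered 251. All 20 named KO-only regions kept their call in the 10 settings where this was counted. So did all 20 named wild-type-only regions, except where peaks had to cover 50% of a region, with 19. Named regions were chosen for their high ranks, so score cuts, equal lengths, libraries left out and every contig could not undo these calls. Only the 50% cover and the wider merging could have changed them, so the kept calls are no test of robustness. The EB difference in H3K4me2 at wild-type-only regions, -0.36 percentage points, turned to 0.70 in the higher-scoring 50% and to 0.63 at scores of at least 100, and ranged from -5.04 to 4.32 with single libraries left out. The direction of peak number, coverage and the other 3 differences held in the alternatives run. These included the replicate block, where the two-sided exact permutation p was 0.5 and the log2 ratio of peak number 0.39. Presence in library 1 minus presence in library 2 was also compared between KO and wild type. These differences correlated at -0.0073 over regions. The settings for transcription starts, for regions of at most 4 kb and without distal chromosome 12 were chosen after seeing the data. The cause of these changes was not tested beyond the settings themselves. Without read depth, a missing peak cannot be told apart from a peak under the threshold, and 2 libraries per group cannot reach p below 0.333.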
